A study of Mus musculus with 3 samples.

Results

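Transcripts of 7 GABA-A receptor subunit genes were described in neuronal nuclei of samples labelled as lateral habenula (LHb), a small epithalamic nucleus. The genes were 4 alpha subunits (Gabra2, Gabra3, Gabra4 and Gabra5), 2 gamma subunits (Gabrg1 and Gabrg3) and the delta subunit (Gabrd), taken by name from 32285 genes counted. All 7 had at least 50 UMIs in neuronal nuclei, a UMI (unique molecular identifier) being a single captured transcript. Nuclei were sorted for KASH-GFP, a fluorescent tag anchored in the nuclear membrane, and the labels call them BNST LHb neurons, BNST being the stria terminalis bed nucleus of the limbic forebrain. The 3 groups were mothers (female), virgin females and virgin males of the mouse, and no further treatment is named. The sources used here do not give strain, age, stage of motherhood or how the tag was delivered. The labels' protocols state that 3 mice were taken per group and each group filled 1 lane, so each group is 1 library and no difference between groups has a replicate check.

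GABA-A receptors are pentameric chloride channels that carry most fast inhibition in the brain. Most hold alpha and beta subunits together with a gamma or a delta subunit, and this choice sets where the receptor sits and which drugs act on it. Receptors with alpha4 and delta lie mainly outside synapses, carry a tonic current, respond to neurosteroids and are well known from thalamic relay neurons, while receptors with alpha2 or alpha3 and a gamma subunit lie mainly at synapses and bind classical benzodiazepines. Inhibition in the LHb restrains neurons whose firing is linked to aversion.

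A total of 592 of 603 nuclei carried the authors' neuron label, 201, 187 and 204 in mothers, virgin females and virgin males. The neuronal nuclei held 2691639, 2718356 and 2122919 UMIs, with medians of 11898, 13181 and 9414 UMIs per nucleus. The authors' clusters 0 to 4 held 172, 157, 97, 91 and 75 neuronal nuclei, and no barcode was shared between libraries. The LHb label did not match every marker in every cluster. Pou4f1, a transcription factor of habenular neurons, had no UMI in clusters 0, 2 and 3. Cluster 4 held few Pou4f1 UMIs: none for mothers, 1 for virgin females and 5 for males. The 6 LHb markers were Chrm3, Gap43, Gpr151, Htr2c, Pcdh10 and Pou4f1. Of these, 5 were seen in clusters 0 and 2, and 4 in cluster 3. They summed to 820 to 978 CPM in cluster 0, 924 to 1292 in cluster 2 and 825 to 1487 in cluster 3. Their sums in clusters 1 and 4 were 1473 to 2584 and 1641 to 1906 CPM. Thalamic markers (Lef1, Prkcd, Rora, Ntng1, Gbx2 and Plekhg1, 6 of 6 seen in every cluster) summed to 6786 to 7418 CPM in cluster 0, 7853 to 8544 in cluster 2 and 10358 to 10994 in cluster 3. The sums of clusters 1 and 4 were 1951 to 2309 and 1000.2 to 1812 CPM. Medial habenula markers were Tac2, Chat, Slc5a7, Chrna3, Chrnb4, Nwd2 and Lmo3. In cluster 1 all 7 were seen and summed to 410 to 556 CPM. In cluster 4 they summed to 38.6 to 156 CPM, and in clusters 0, 2 and 3 to at most 7.98, 10.9 and 8.74 CPM. CPM is a gene's UMIs over all UMIs of the same nuclei, scaled to 1000000. Clusters are therefore called by number. What part the thalamic or medial habenula content has in the differences below was not tested.

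The members sit in a few genomic clusters (GRCm38, GENCODE annotation). Gabrg1 (5:70751047-70842617), Gabra2 (5:70957597-71095849) and Gabra4 (5:71569749-71658308) follow each other on the minus strand of chromosome 5, with Gabrb1, a beta subunit on the plus strand, overlapping the start of Gabra4. Gabrg3 (7:56716465-57387188) and Gabra5 (7:57407672-57510059) are neighbours on chromosome 7, also on the minus strand. Gabra3 (X:72432681-72656848) is X-linked and Gabrd (4:155384980-155398112) stands on chromosome 4. The sources used here do not say whether counting used the strand, so reads of members that overlap other genes, such as Gabra4 with Gabrb1, may not be fully separated.

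The sequences upstream of the 3 members on chromosome 5 are shown because these neighbours had unlike patterns over the clusters: Gabra2 and Gabrg1 were both highest in cluster 4, and Gabra4 had its lowest mean there. They are the RefSeq bases (GRCm38.p6) that end just before the annotated start, written 5′ to 3′, and for Gabra4 only the stretch outside the overlapping Gabrb1 exon.
Gabra2, chr5:71095850-71096099, minus strand: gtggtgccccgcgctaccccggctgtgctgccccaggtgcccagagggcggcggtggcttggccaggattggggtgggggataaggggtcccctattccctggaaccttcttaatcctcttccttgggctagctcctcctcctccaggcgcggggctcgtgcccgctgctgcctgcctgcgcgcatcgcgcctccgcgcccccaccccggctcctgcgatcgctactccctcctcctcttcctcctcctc
Gabrg1, chr5:70842618-70842867, minus strand: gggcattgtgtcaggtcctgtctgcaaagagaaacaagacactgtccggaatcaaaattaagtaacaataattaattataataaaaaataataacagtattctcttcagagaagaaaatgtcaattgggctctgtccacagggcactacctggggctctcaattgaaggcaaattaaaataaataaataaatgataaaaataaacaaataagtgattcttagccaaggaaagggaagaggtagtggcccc
Gabra4, chr5:71658364-71658558, minus strand: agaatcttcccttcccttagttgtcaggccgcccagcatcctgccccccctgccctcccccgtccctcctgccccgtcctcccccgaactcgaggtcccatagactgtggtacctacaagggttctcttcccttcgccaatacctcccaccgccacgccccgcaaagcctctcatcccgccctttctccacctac
The Gabra2 stretch had 70.0% G and C, the Gabrg1 stretch 35.6% and the Gabra4 stretch 63.6%, while the median over 32851 promoters of RefSeq was 52.4%. Both strands were searched for the TATA box TATAAA, the cAMP response element TGACGTCA, the EGR site GCGGGGGCG and the LEF/TCF site CTTTGAT, and none of these strings occurs in the 3 printed stretches, so no letter is in capitals. These strings were found in 12.4%, 1.55%, 2.57% and 3.21% of the promoters. The lack of a match concerns these letters in these windows only.

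A member was counted as higher or lower in a cluster when its CPM differed at least 1.5-fold from the other neuronal nuclei in each of the 3 libraries. Of the 35 pairs of a member and a cluster, 8 were higher (over 11467 genes with at least 50 UMIs, 4.41% of pairs were), 10 were lower (7.73%) and 17 were neither. The median absolute log2 ratio over the 35 pairs was 0.94, against 0.34 over the pairs of all 11467 genes. The highest cluster was the same in all 3 libraries for 5 of 7 members (21.5% of all genes). Clusters were built by the authors from these same nuclei, so these counts describe the clusters and are no test of them. Values are compared for 1 gene across clusters and not between genes, since transcript length and intron content can set how many UMIs a gene receives. In summed UMIs, fewer nuclei with a transcript and less of it per nucleus cannot be told apart, except where shares of nuclei are given.

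**Figure D1:**
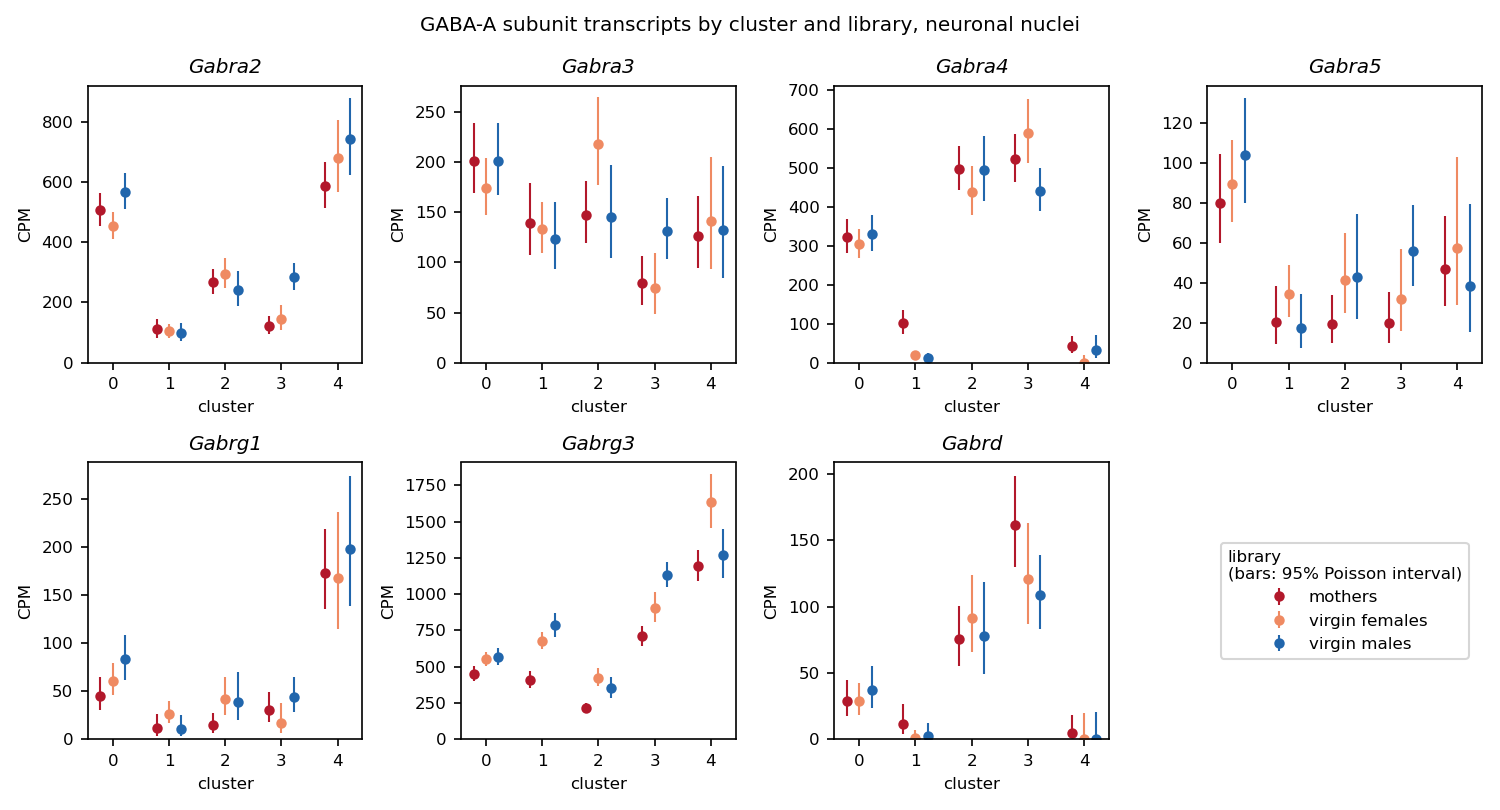
CPM of each member (vertical axis, from 0, a scale of its own per panel) by cluster (horizontal axis) and library (colour), with exact 95% Poisson intervals of counting error. Gabra2 and Gabrg1 stand highest in cluster 4, Gabra5 in cluster 0 and Gabrd in cluster 3, while Gabra4 is high in clusters 2 and 3 and near the axis in clusters 1 and 4.

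The alpha2 subunit gene Gabra2 was highest in cluster 4, where mothers had 587 CPM, virgin females 681 and virgin males 744. Cluster 0 followed at 508, 453 and 568 CPM, and the ranges of clusters 4 and 0 over the libraries did not overlap. Both clusters were higher than the other neuronal nuclei, by 2.16- to 2.57-fold for cluster 4 and 1.98- to 2.07-fold for cluster 0. Cluster 2 had 268, 295 and 242 CPM and cluster 3 had 122, 147 and 283 CPM, ranges that overlapped. Cluster 1 was lowest at 110.4, 104 and 97.5 CPM, 0.225 to 0.307 times the other nuclei. In cluster 3 the male level was 1.93 times that of virgin females (95% counting interval 1.40 to 2.70), and 2.07 times without the nucleus richest in Gabra2 of each library. Gabra2 was not alone in this. Males over virgin females in cluster 3 was 1.75-fold for Gabra3, 1.77 for Gabra5, 2.53 for Gabrg1 and 1.25 for Gabrg3. It was 0.747-fold for Gabra4 and 0.897 for Gabrd, and the intervals of Gabra5 and Gabrd held 1.

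Gabra3 encodes the alpha3 subunit, which in the adult brain is known from monoaminergic and reticular thalamic neurons, and was the member with the flattest pattern. It was neither higher nor lower by the rule in any cluster. Mothers had 202 CPM in cluster 0, virgin females 174 and virgin males 201. In cluster 2 the values were 148, 218 and 146 CPM, so that the highest cluster was 0 in mothers and males and 2 in virgin females. Clusters 1 and 4 ranged from 123 to 141 CPM and overlapped each other. Cluster 3 had the lowest mean, with 79.0 and 74.8 CPM in mothers and virgin females but 131 in virgin males, a value inside the range of cluster 1.

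Gabra4, the alpha4 subunit gene, separated clusters 0, 2 and 3 from clusters 1 and 4. In cluster 3 mothers had 523 CPM, virgin females 589.8 and virgin males 441, and cluster 2 had 497.5, 439 and 494 CPM. These ranges overlapped, and both clusters were higher than the other neuronal nuclei, by 1.90- to 2.90-fold and 1.81- to 2.04-fold. Cluster 0 was intermediate at 322, 305 and 330.4 CPM, below clusters 2 and 3 and above clusters 1 and 4 in every library. Cluster 1 had 101, 18.9 and 10.8 CPM. Cluster 4 had 42.1 CPM in mothers, no UMI in virgin females, where a floor of 3 UMIs is 15.7 CPM, and 33.1 CPM in males, or 6 UMIs.

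The Gabra4 level of cluster 1 in mothers rested on few nuclei. Its 45 UMIs came from 13 of 39 nuclei, and 1 nucleus alone held 20. That nucleus also had 54 UMIs of Ntng1 and 3 of Lef1, both thalamic markers, and none of Nwd2, a medial habenula marker. Without the 9 mothers' nuclei of cluster 1 that had at least 2 Lef1 UMIs, a limit chosen after seeing the data, Gabra4 in mothers was 44.6 CPM there, and in virgin females and males it was 17.1 and 11.7 CPM on the same basis. In cluster 4 of mothers, 2 such nuclei held 11 of 17 Gabra4 UMIs, and the level was 16.8 CPM without them. All of these values lie below the Gabra4 level of clusters 0, 2 and 3 in every library.

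Gabra5, whose alpha5 subunit is known from extrasynaptic receptors of the hippocampus, was highest in cluster 0. Mothers had 79.8 CPM there, virgin females 89.3 and virgin males 104, or 2.35 to 3.17 times the other neuronal nuclei and above every other cluster in all libraries. Cluster 4 followed at 47.0, 57.6 and 38.6 CPM, and overlapped with cluster 3 (19.8, 31.6 and 56.0 CPM), which overlapped with cluster 2 (19.3, 41.5 and 42.6 CPM). Cluster 1 was lower than the other nuclei, with 20.3, 34.2 and 17.3 CPM. The gene is sparse outside cluster 0, with 7 to 32 UMIs per cluster and library.

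Of the gamma subunits, Gabrg1 (gamma1) marked cluster 4. There, mothers had 173 CPM, virgin females 168 and virgin males 198, 4.14- to 6.50-fold above the other neuronal nuclei. Cluster 0 was next at 45.2, 60.7 and 83.0 CPM. Clusters 2 and 3 overlapped between 14.4 and 43.7 CPM, and cluster 1 had 11.3, 25.9 and 10.8 CPM. Clusters 1 and 3 were lower by the rule. Gabrg1 is also known from glia, so astrocyte markers were summed beside it. Of 6 markers, 3 were seen in cluster 4 (34.7 to 52.4 CPM summed, with Gfap, Aqp4 and Gja1 at 0), 2 in cluster 2 (175 to 206 CPM, with Slc1a3 also at 0) and 4 in cluster 3 (145 to 286 CPM, with Gfap and Aldh1l1 at 0). In clusters 0 and 1, 4 markers each were seen, and summed to 9.58 to 10.5 and 11.8 to 42.8 CPM. Nearly all of the sums of clusters 2 and 3 was Slc4a4, a bicarbonate transporter gene, at 175 to 206 and 135 to 277 CPM. Slc1a3, the gene of an astrocyte glutamate transporter, went the other way, with 4.95, 10.5 and 27.5 CPM in cluster 4 (2, 2 and 5 UMIs) and at most 3.498 CPM in any other cluster. The part of astrocyte transcripts in the Gabrg1 level was not tested.

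Gabrg3 (gamma3) was also highest in cluster 4, where mothers had 1196 CPM, virgin females 1634 and virgin males 1272, or 1.69 to 2.71 times the other neuronal nuclei. Cluster 3 followed with 709.6, 906 and 1133 CPM and did not overlap with cluster 4. Cluster 1 had 408, 678 and 784 CPM and cluster 0 had 452, 549.6 and 567 CPM, so these neighbours in the order overlapped. Cluster 2 was lowest at 212, 423 and 352 CPM, 0.322 to 0.569 times the other nuclei. Within cluster 2 the level differed between subtype labels deposited by the authors. The 74 nuclei labelled LHb1 had 371 CPM and the 22 labelled LHb2 had 75.8 CPM, from 20 UMIs. Of these 22 nuclei 15 were from mothers, so label and library are mixed. LHb1 and LHb2 nuclei had 285 and 48.5 CPM in mothers and 423 and 131 CPM in virgin males. Virgin females had 428 and 205 CPM, the latter from 1 nucleus with 2 UMIs.

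The delta subunit gene Gabrd was highest in cluster 3, where mothers had 162 CPM, virgin females 121 and virgin males 108, or 3.66 to 4.73 times the other neuronal nuclei. Cluster 2 had 75.4, 91.7 and 78.1 CPM and cluster 0 had 28.6, 28.6 and 36.7 CPM, without overlap between these neighbours. Cluster 1 had 11.3 CPM in mothers, from 5 UMIs, and 1 UMI in each of the other libraries. In cluster 4 Gabrd had 2 UMIs in mothers and none elsewhere. The nuclei with at least 2 Lef1 UMIs described above held 3 of the mothers' 5 UMIs in cluster 1. They also held 2 of 2 in cluster 4. Over the 15 sums of a cluster in a library, log2(CPM + 1) of Gabrd and Gabra4 correlated with Pearson's r of 0.914, and that of Gabra2 and Gabrg1 with 0.873. These are descriptions over sums that share libraries and clusters, without a test.

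**Figure D2:**
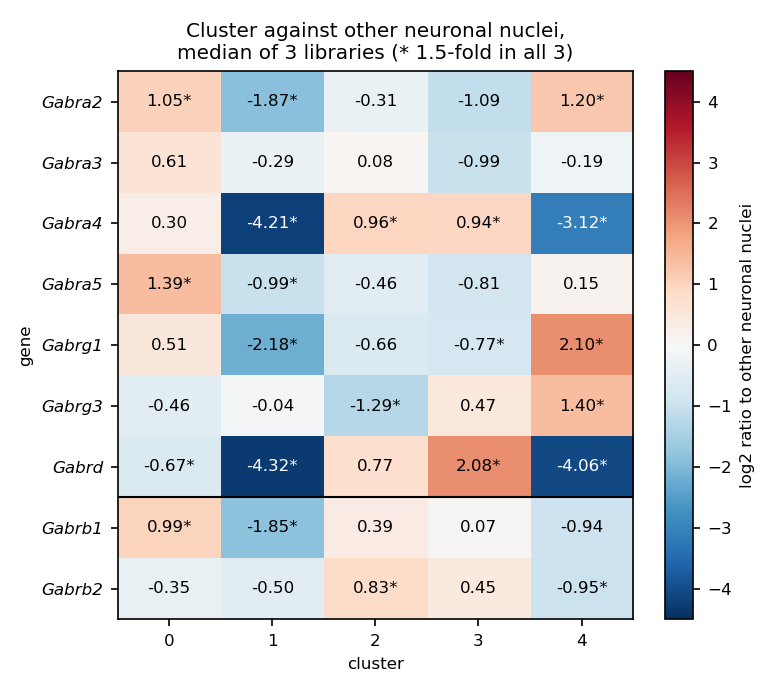
Log2 CPM ratio of each cluster (horizontal axis) to the other neuronal nuclei, median of 3 libraries, for the 7 members (above the line) and for Gabrb1 and Gabrb2 (below the line), the beta subunit genes that passed the limit in a cluster. An asterisk marks at least 1.5-fold in the same direction in all 3 libraries, and cluster 1 shows 5 lower members and 0 higher.

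By cluster, the members gave unlike counts. Cluster 1 had 5 of 7 members lower (7.42% of all genes were) and 0 higher (7.52%). Cluster 4 had Gabra2, Gabrg1 and Gabrg3 higher (4.76% of genes) and Gabra4 and Gabrd lower (7.93%). In cluster 0 Gabra2 and Gabra5 were higher (4.35%) and Gabrd lower (6.55%). Gabra4 was higher (1.64%) and Gabrg3 lower (6.37%) in cluster 2. In cluster 3 Gabra4 and Gabrd were higher (3.78%) and Gabrg1 lower (10.4%). The UMIs of all 19 GABA-A subunit genes together were 2545 to 2688 CPM in cluster 1 and 3997 to 5381 CPM in the other clusters.

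The subunit mix was taken as a gene's share of the UMIs of all 19 subunit genes, as mean ± SD over the 3 libraries, a spread that includes the difference between groups. Gabra2 made up 15.3% ± 1.5 of subunit UMIs in cluster 4 (SD, n = 3) and 10.2% ± 0.72 in cluster 0, against 4.00% to 6.22% elsewhere. Gabra4 made up 11.6% ± 2.2 in cluster 3 and 11.1% ± 1.1 in cluster 2, but 0.603% ± 0.54 in cluster 4. Gabrg3 ranged from 7.59% ± 2.2 in cluster 2 to 31.1% ± 2.7 in cluster 4. In cluster 1 Gabrg3 was 23.9% ± 7.4, a large share of a small total.

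Among the UMIs of the 4 alpha members alone, Gabra2 was 76.3% ± 2.8 in cluster 4 and 45.8% ± 1.4 in cluster 0. Gabra4 was 62.9% ± 13 in cluster 3, 50.3% ± 5.3 in cluster 2 and 28.8% ± 1.2 in cluster 0. Its share in clusters 1 and 4 was 12.7% ± 13 and 2.91% ± 2.7. The wide spread in cluster 1 went with 27.3% in mothers, where the 9 nuclei with at least 2 Lef1 UMIs described above held 31 of 45 Gabra4 UMIs. Without such nuclei Gabra4 there was still 44.6 CPM in mothers against 17.1 in virgin females and 11.7 in males. The share was not computed without them. Gabra3 reached its largest share, 44.4% ± 6.1, in cluster 1, where the level of Gabra2, Gabra4 and Gabra5 was low and its own was not raised. Gabra5 was 8.18% ± 0.87 in cluster 0 and 8.07% ± 3.3 in cluster 1, although its mean CPM over the libraries was lowest in the latter.

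Among the UMIs of Gabrg1, Gabrg3 and Gabrd, the delta subunit gene was 19.4% ± 4.9 in cluster 2 and 12.6% ± 4.8 in cluster 3. In clusters 0, 1 and 4 it was 5.09% ± 0.53, 1.02% ± 1.4 and 0.120% ± 0.21. Gabrg1 was 11.8% ± 2.2 in cluster 4 and 10.1% ± 1.8 in cluster 0, the largest shares of the gene. Gabrg3 ranged from 73.8% ± 3.1 in cluster 2 to 96.4% ± 1.8 in cluster 1. Gabrg3 has a long span, and its share of UMIs relative to the others is not a share of protein.

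**Figure D3:**
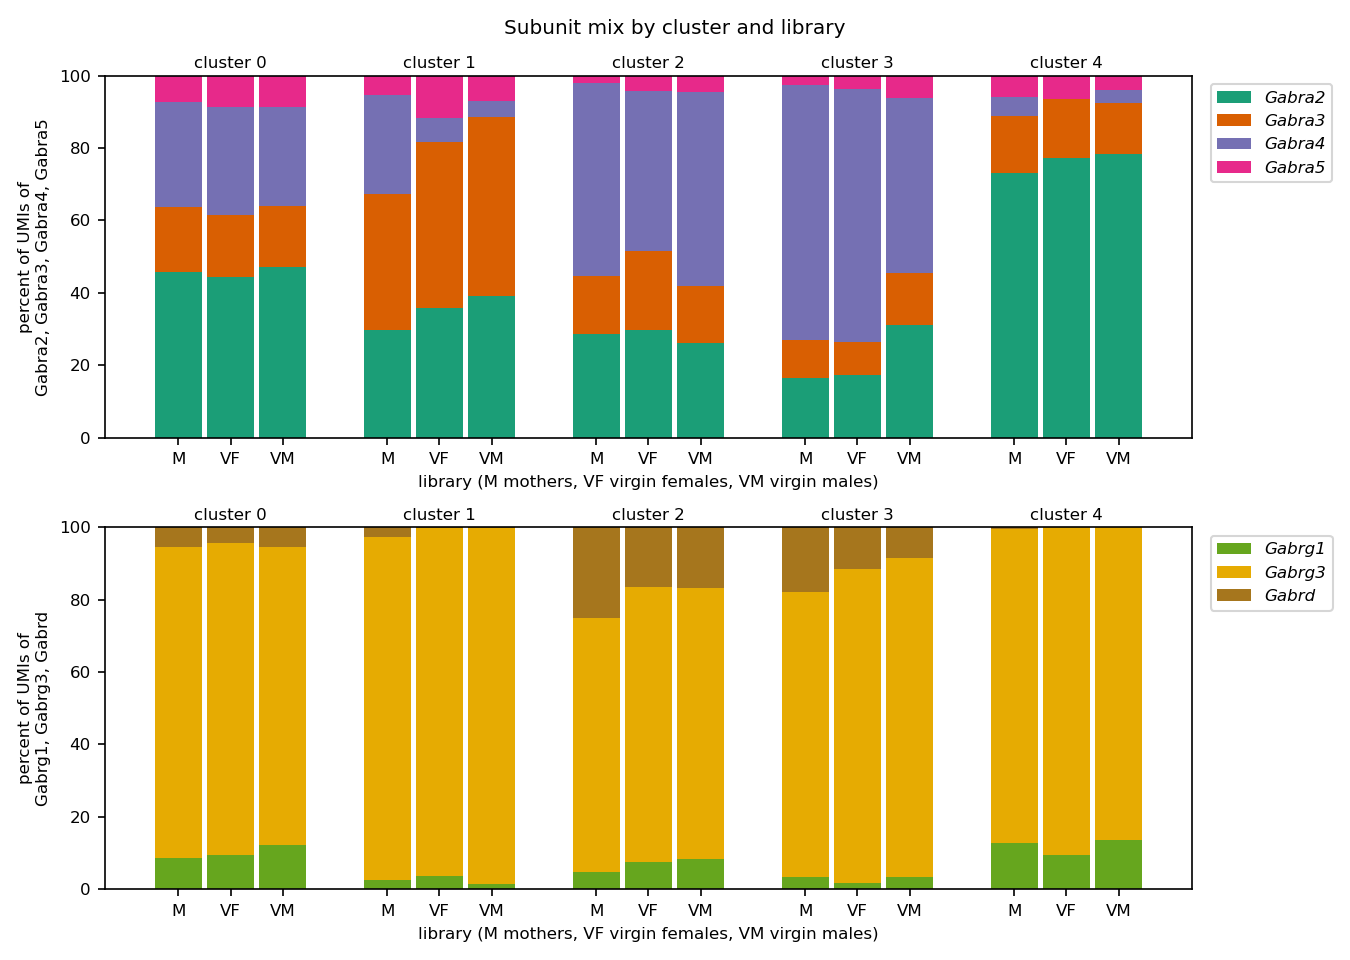
Share of UMIs (vertical axis, percent) of Gabra2 to Gabra5 (top) and of Gabrg1, Gabrg3 and Gabrd (bottom) in each cluster and library (horizontal axis). In all 3 libraries the share of Gabra2 is larger in cluster 4 than in any other cluster, that of Gabra4 is larger in clusters 2 and 3 than in clusters 0, 1 and 4, and that of Gabrd is larger in clusters 2 and 3 than elsewhere.

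Nuclei were then read for subunits detected together. Gabra2 and Gabra4 were both seen in 148 of 172 nuclei of cluster 0, 87 of 97 of cluster 2 and 73 of 91 of cluster 3. In cluster 4 both appeared in 9 of 75 nuclei, and 61 had Gabra2 alone. In cluster 1 neither was seen in 82 of 157 nuclei, and 18 had both. Thinned to 5000 UMIs per nucleus, which leaves out 59 shallower nuclei, the share with both was 65.4%, 62.7% and 47.4% in clusters 0, 2 and 3, and 8.19% and 4.08% in clusters 4 and 1. Gabra4 without Gabra2 was 42.1% of thinned nuclei in cluster 3 and 0.300% in cluster 4.

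Gabrd was seen mostly beside Gabra4. Of 75 nuclei with Gabrd in cluster 3, 72 also had Gabra4, as did 57 of 59 in cluster 2 and 55 of 57 in cluster 0. Thinned, both were seen in 42.5% of nuclei of cluster 3, 27.1% of cluster 2 and 12.02% of cluster 0. Gabra4 itself was seen in 96.7%, 94.8% and 89.0% of the nuclei of clusters 3, 2 and 0, so most nuclei with any other gene would have it too. Gabra2 and Gabrg1 were seen together in 45 of 75 nuclei of cluster 4 (45.2% thinned) and 75 of 172 of cluster 0 (24.5% thinned). Among the 11 non-neuronal nuclei, 3 had Gabra2, 1 had Gabra4, 2 had Gabrg1 and 0 had Gabrd, at a median of 4780 UMIs against 11380 in neuronal nuclei. A count of 0 in 11 nuclei allows a share of up to 28.5% by the exact binomial bound, so this background is poorly known.

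**Figure D4:**
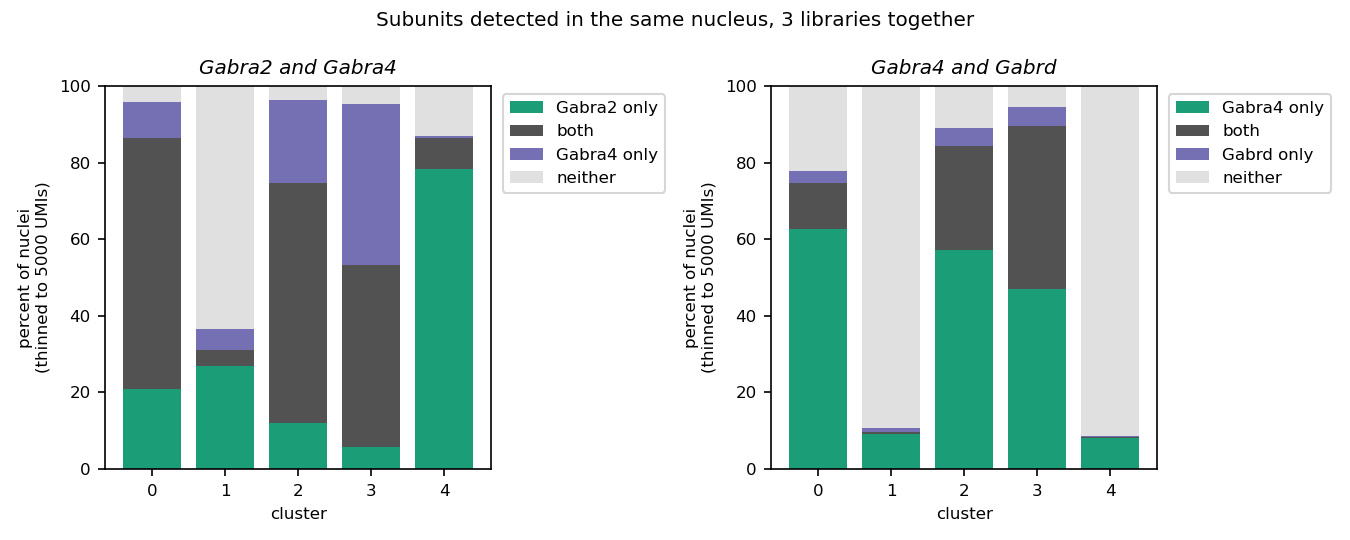
Percent of nuclei (vertical axis, 3 libraries together, thinned to 5000 UMIs) in each cluster (horizontal axis) with a UMI of only 1 of the genes, of both or of neither. Left, Gabra2 and Gabra4; right, Gabra4 and Gabrd. Nuclei with Gabra2 alone make up 78.3% of cluster 4, and nuclei with both Gabra4 and Gabrd 42.5% of cluster 3.

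Cluster 1 carried 2 of the authors' subtype labels, LHb2 in 86 nuclei and LHb4 in 71. Gabra2 had 133 CPM in LHb2 and 57.4 in LHb4 nuclei together, but mothers had 90.1 and 144, virgin females 145 and 26.8, and males 154 and 32.5, so the mothers' library went the other way. Gabra5 had 37.2 and 8.83 CPM (40 and 6 UMIs). Gabra3 had 142 CPM (119.9 to 166) and 118 CPM (93.3 to 146), Poisson intervals that overlapped, and was lower in LHb2 nuclei in virgin females (129 against 141 CPM). Gabrd had 5 UMIs in LHb2 nuclei, all from mothers and 3 of them in nuclei with at least 2 Lef1 UMIs. It had 2 in LHb4 nuclei, 1 in each of the other libraries. Gabrg3 had 740.2 and 475 CPM, and was higher in LHb2 nuclei in each library, with 447 and 343 CPM for mothers, 755 and 537 for virgin females, and 1039 and 493 for males. Gabra4, Gabrg1 and Gabra5 were also higher in LHb2 nuclei in each library, from few UMIs. Gabra4 had 54.0 and 11.8 CPM (58 and 8 UMIs, 38 of the 58 from mothers) and Gabrg1 24.2 and 8.83 CPM (26 and 6 UMIs).

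The libraries were compared to ask whether receptor subunits differed with motherhood and with sex. Over all neuronal nuclei, 0 of 7 members differed at least 1.5-fold between mothers and virgin females (7.49% of genes with at least 50 UMIs in the pair did), 0 between virgin males and virgin females (7.56%) and 1, Gabra5, between mothers and virgin males (7.27%). Mothers had 38.6 CPM of Gabra5, virgin females 54.4 and virgin males 58.4. The mothers' level was 0.661 times the male level (0.505 to 0.865) and 0.710 times that of virgin females (0.547 to 0.918). Gabrd in mothers was 60.6 CPM against 40.5 in virgin females, 1.497-fold (1.17 to 1.92) and just under the limit. Intervals are exact, hold counting error only, and treat UMIs of the same nucleus as independent.

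The cluster mix of a library enters these values. Of the mothers' nuclei, 46, 35 and 34 were in clusters 2, 3 and 4. Virgin females had 26, 17 and 18 nuclei there, and virgin males 25, 39 and 23. With each cluster weighted equally, the Gabrd level of mothers over virgin females was 1.16-fold in place of 1.497, and that of Gabra4 was 1.10-fold in place of 1.29. Within cluster 3 Gabrd was 1.34-fold (0.918 to 1.98) and within cluster 2 it was 0.823-fold (0.531 to 1.28) in mothers over virgin females. Equal weights left Gabra5 at 0.732 and lowered Gabrg3 to 0.710.

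Gabrg3 was lowest in mothers in each of the 5 clusters, the only member to be so. Of 11467 genes 0.488% had this pattern, and 1.51% of the 1324 genes with at least 1000 UMIs. Over all neuronal nuclei mothers had 554 CPM of Gabrg3, virgin females 690.1 and virgin males 798, 0.803 times (0.749 to 0.860) and 0.694 times (0.647 to 0.744) for mothers over each. Against virgin females the ratio in clusters 0 to 4 was 0.822, 0.601, 0.5004, 0.783 and 0.732, with all 5 intervals below 1. Against virgin males it was 0.797, 0.520, 0.602, 0.626 and 0.9395, the last with an interval of 0.802 to 1.10. Mothers stayed below each of the other libraries in 5 of 5 clusters without the nucleus richest in Gabrg3 of each library. With 1 library per group, a difference between libraries cannot be told apart from a difference between groups.

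Other features also differed between the libraries, some but not all of them in the order of Gabrg3. In cluster 2, 15 of 46 mothers' nuclei carried the LHb2 label, against 1 of 26 in virgin females and 6 of 25 in males. Within the LHb1 nuclei of that cluster Gabrg3 was 285 CPM for mothers, 428 for virgin females and 423 for males. Over all neuronal nuclei, summed LHb markers (Chrm3, Gap43, Gpr151, Htr2c, Pcdh10 and Pou4f1) had the same order over libraries as Gabrg3, with 1088, 1361 and 1534 CPM. Thalamic markers had another order, with 6437, 5827 and 6536 CPM. Oligodendrocyte precursor markers were 32.7, 93.4 and 86.7 CPM over all neuronal nuclei. In cluster 1 they were 164, 289 and 366 CPM, in the same order as Gabrg3 there (408, 678 and 784 CPM). Between males and virgin females this Gabrg3 order depended on the richest nuclei. Males over virgin females was 1.16-fold there, but 0.976-fold (0.842 to 1.13) without the nucleus richest in Gabrg3 of each library. Among the precursor markers of cluster 1, Sox6 was at 158, 271 and 329 CPM and Vcan at 6.76, 17.7 and 34.7 CPM, with 1 UMI of Pdgfra and none of Cspg4. The part of these features in the Gabrg3 values was not tested. Thinned to 5000 UMIs, Gabrg3 was seen in 69.6% of nuclei from mothers, 79.9% from virgin females and 86.3% from males.

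Gabra5 was also lower in mothers than in virgin females in 5 of 5 clusters, so that 2 of 7 members had this pattern, against 3.75% of genes. Against virgin males only Gabrg3, 1 of 7, was lower in 5 of 5 (3.05% of genes). For Gabra5 all 5 intervals against virgin females held 1, the ratios running from 0.464 in cluster 2 to 0.894 in cluster 0, and against males it was lower in 3 of 5. No member was higher in mothers in all clusters. Between virgin males and virgin females, 0 of 7 members were lower or higher in all 5 clusters (3.88% of genes were lower). Gabra2 in males was 1.23-fold (1.11 to 1.36) over virgin females in all neuronal nuclei, with 1.25-fold in cluster 0 and 1.93-fold in cluster 3, but 0.820-fold in cluster 2 and 0.9396-fold in cluster 1.

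**Figure D5:**
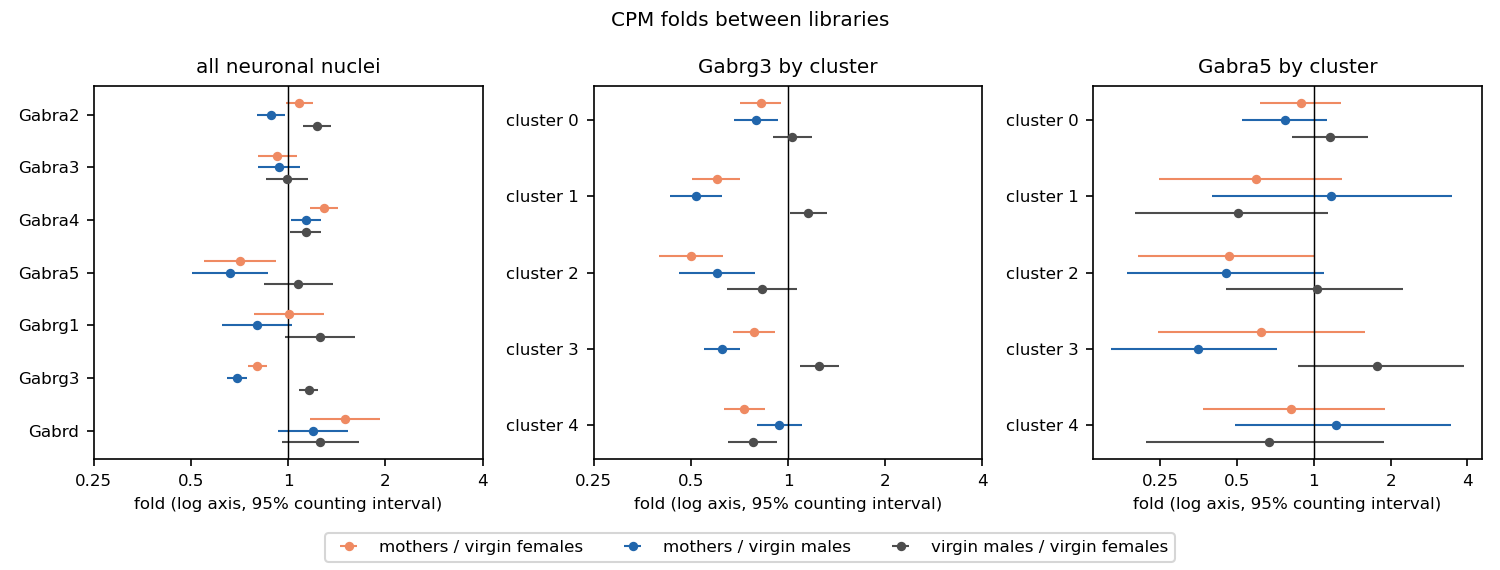
CPM folds between libraries (horizontal axis, log scale) with exact 95% counting intervals, for the 7 members in all neuronal nuclei (left) and for Gabrg3 and Gabra5 by cluster (middle and right). All mothers' points of Gabrg3 lie below 1, while the intervals of Gabra5 by cluster are wide and most hold 1.

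Partners of the receptor were read from 5 lists of its pathway. Of the 12 other subunit genes 5 had at least 50 UMIs, and 2 of these were higher in a cluster and lower in another, over a background of 20.1% of genes higher and 26.5% lower in at least 1 cluster. Gabrb1, a beta subunit that overlaps Gabra4, had 1583, 1520.5 and 1777 CPM in cluster 0, where it was higher, and 498, 359.6 and 264 CPM in cluster 1, where it was lower. Gabrb2, the beta2 subunit found with alpha4 and delta in thalamic receptors, was higher in cluster 2 at 609.8, 631 and 707 CPM and lower in cluster 4 at 176, 215 and 226 CPM. Gabra6 had 13 UMIs in mothers, all in 1 nucleus of cluster 3.

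Of 12 scaffold and assembly genes, all measured, 2 were higher in a cluster (20.1% of all genes were) and 5 lower (26.5%). Plainest was Mdga1, which restrains synaptic adhesion, at 72.1, 75.5 and 91.0 CPM in cluster 1 and 71.8, 78.6 and 66.1 in cluster 4, both higher, and at most 10.8 CPM in cluster 3. Insyn2a, an inhibitory synaptic factor, was higher in cluster 1 at 24.8, 41.3 and 39.0 CPM. Slitrk3, an adhesion protein of inhibitory synapses, was lower in cluster 4, and Dmd, the dystrophin gene, was lower in cluster 2, as was Iqsec3, a gephyrin partner named after its values were seen. Gphn, the gephyrin scaffold gene, and Nlgn2, the neuroligin of inhibitory synapses, did not pass in any cluster. Of 13 trafficking genes 2 passed in either direction, Hap1 and Plcl1, while 31.7% of all genes passed in at least 1 cluster. Plcl1, a receptor-binding regulator of phosphatases, had 403, 377 and 470.1 CPM in cluster 1 and 364, 367 and 375 in cluster 4, against 19.2 to 25.9 in cluster 3. Hap1, which helps receptors back to the membrane, was higher in cluster 0 at 94.9, 135 and 156 CPM. None of 4 chloride transporter genes and none of the 3 measured neurosteroid and endozepine genes passed (31.7% of all genes did).

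The genes most like each member were taken among 6248 genes with at least 200 UMIs, by Pearson's r of log2(CPM + 1) over the 15 sums of a cluster in a library. The sums share libraries and clusters, so r is a description. Gabrd was closest to Ramp3 (0.987), a receptor activity-modifying protein, Synpo2 (0.986) and Lef1 (0.980), which is on the thalamic list. For Gabra4 these were Prkch (0.980), Nmt2 (0.970) and Khdrbs3 (0.962). Gabra2 was closest to Dlg1 (0.919), Khdrbs2 (0.917) and Foxn3 (0.912), and Gabrg1 to Plppr1 (0.907), Dlg1 (0.883) and Zfp532 (0.876). Gabra5 was closest to A830018L16Rik (0.908), Rit2 (0.873) and Khdrbs2 (0.864). The likeness was lower for Gabra3, with Phlpp2 (0.857), Timp3 (0.853) and Tceal5 (0.840), and for Gabrg3, with Sobp (0.851), Wdfy3 (0.806) and Lingo2 (0.799).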

How the data were processed

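Single-nucleus RNA-seq of KASH-GFP+ nuclei was done with the 10x Chromium 3′ v3.1 kit, 1 library per group, per the labels' protocols. The authors deposited UMI counts per gene and nucleus, not normalized, and metadata with total counts, genes detected, the percent of mitochondrial UMIs, cell class, cluster and subtype labels. Per the submitters' processing notes, Cell Ranger 5.0.1 was used, and GRCm38 (mm10) is named as build. For intron counting, strand, nucleus filters and doublet treatment, settings were not given in the sources used here, and no doublet caller was run on libraries of this size.

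Nuclei were matched between the deposited tables on total UMIs together with genes detected, a combination unique for all 603 nuclei, and the deposited percent of mitochondrial UMIs matched that computed from the counts with a largest difference of 0. UMIs of neuronal nuclei were summed per cluster and library and given as CPM with exact Poisson 95% intervals, shares with exact Clopper-Pearson intervals, and folds with exact conditional binomial intervals (Python 3.11.15, scipy 1.17.1). A floor of 3 UMIs was used for zeros. All cover counting error only. A total of 533 nuclei with at least 5000 UMIs entered the thinned shares, which leaves out 14 of mothers, 15 of virgin females and 30 of virgin males. With 1 library per group no test was possible, so no p-value is given. edgeR 4.0.16 and DESeq2 1.42.0 served for alternative scaling factors only (R 4.3.3). The counting rule was also run on simulated Poisson counts of cluster sums with known changes. Those counts had no extra spread between nuclei and, apart from depth, no differences between libraries, so the run speaks to neither.

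The members, gene lists and markers were chosen with earlier results of these data known. Named by rule were all members, other subunit genes, of which some are not reported here, up to 4 genes per pathway list with the largest ratios past 1.5-fold in all 3 libraries, and the 3 genes most like each member. Alternatives were other scaling factors, other weights of nuclei and clusters, thinning, a 2-fold limit, other references, leaving out libraries, deep nuclei, the richest nucleus or nuclei without the LHb label, and no filter on low counts. Shares among the alpha members and among the gamma and delta members were added after the data were seen. Gabrd had no promoter entry. Protein sequences were not used here.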

Additional observations from a re-analysis of the deposited data

Results flagged for a closer look

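The 11 non-neuronal nuclei, 9 of them from virgin females, entered no comparison and held UMIs of some members. Gabrg3 stood at 233 CPM there (95% Poisson interval 138 to 368, from 18 UMIs in 5 nuclei) and Gabra2 at 77.7 CPM (28.5 to 169, from 6 UMIs in 3 nuclei), both above the floor of 3 UMIs, or 38.8 CPM. In neuronal nuclei the same genes stood at 672 and 322 CPM over the 3 libraries. Gabrg1 was at the floor with 3 UMIs, Gabra3 and Gabra4 had 1 UMI each, and Gabra5 and Gabrd had none. Whether these UMIs come from these nuclei themselves or from free RNA was not tested.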

How the results depend on the processing

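At a 2-fold limit 4 pairs of a member and a cluster were higher and 6 lower, in place of 8 and 10. Leaving out a library gave 8 to 9 higher pairs, 10 to 13 lower pairs and 5 to 6 members with a constant highest cluster. Between mothers and virgin females, 1 member passed 1.5-fold in place of 0 with TMM factors, DESeq2 size factors, nuclei weighted equally, thinned nuclei, no 5% deepest nuclei, no richest nucleus, only LHb-labelled nuclei, and (chosen after seeing the data) no nuclei of clusters 1 and 4 with at least 2 Lef1 UMIs. This was Gabrd, from 1.501-fold with TMM factors to 1.75-fold in thinned nuclei, while it was 1.16-fold with clusters weighted equally. Between mothers and virgin males, 0 members passed in place of 1 with nuclei weighted equally, thinned nuclei, no 5% deepest nuclei or clusters weighted equally, where Gabra5 stood at 0.757, 0.694, 0.705 and 0.721 times the male level. Males over virgin females gave 0 members under every alternative run. Leaving out 5 nuclei with at least 10 UMIs of Ttr, a choroid plexus gene, also chosen after seeing the data, kept each count within 1.5 times. Of 665 values of single members under alternatives, 35 moved beyond the spread between libraries or the counting interval and 0 changed direction after a call. No paired analysis was possible because each group is 1 library and replicate numbers do not pair them. Depth limits Gabra5, Gabrg1 and Gabrd most: within a cluster and library a floor of 3 UMIs ranges from 3.43 to 16.5 CPM.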
